A study of Homo sapiens with 6 samples.

Results

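Long non-coding RNAs (lncRNAs) are transcripts with no known protein product. Of the 24526 genes counted in WM266.4 melanoma cells, 6245 were annotated as lncRNA, and the 102 described here are those with at least 300 read pairs in every one of the 6 libraries. They were chosen by their counts, so that they are abundant is not a result, whereas the comparison of the groups was not used. A gene that fell to under 300 in any library could not be among them. Just inside the limit were HPN-AS1, with a lowest count of 305, and BAALC-AS1 with 307. Just outside were LEF1-AS1, with a lowest count of 296, CYTOR and BISPR with 294 each, and OLMALINC with 288.

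The study asked which transcripts change when the kinase RIPK4 is silenced in melanoma cells. WM266.4, an established human melanoma line, received either negative control siRNA (neg.si, 3 cultures) or siRNA against RIPK4 (RIPK4.si, 3 cultures), and RNA was taken after 48 h. An siRNA is a short RNA duplex that directs cleavage of the transcripts it pairs with, and both groups were transfected, so neither is untreated. All libraries come from 1 cell line with a transient knockdown. The paper lists 1 siRNA against RIPK4, so effects of losing RIPK4 and other effects of that siRNA cannot be told apart.

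Library totals lay between 28464057 and 31688095 read pairs on genes. The targeted transcript, RIPK4, stood at 72.3 ± 15.9 CPM (read pairs per 1e6 of the normalized library) in neg.si against 19.4 ± 2.48 CPM in RIPK4.si (SD over 3 libraries each; edgeR adjusted p = 0.0102). Most lineage markers fitted the label, with MITF at 348 and SOX10 at 367 CPM in neg.si. The keratinocyte keratin KRT5 was at 0.205 CPM there, KRT14 at 0.0538, the fibroblast gene COL1A1 at 0.152 and the leukocyte gene PTPRC at 0.312. KRT10, also on the keratinocyte list, was at 10.5 CPM in neg.si, and MLANA, on the melanocyte list, was at 12.5 CPM.

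lncRNAs act in several ways. Some scaffold nuclear bodies, as NEAT1 does for paraspeckles, some bind and hold proteins or microRNAs, and some matter mainly for what their introns or exons carry, since small nucleolar RNAs (snoRNAs) and microRNAs are often cut out of lncRNA precursors. The spliced remains of snoRNA host transcripts are often degraded in the cytoplasm by nonsense-mediated decay. Others are transcribed across or beside a coding gene and are named after it. Cancer cells of a given lineage often carry lncRNAs found in few other tissues, and in melanoma SAMMSON, transcribed beside MITF, is a well studied case.

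Reads were counted without regard to strand, so reads from a lncRNA and a gene on the other strand of the same bases cannot be told apart. Against the coding genes and coordinates of the deposited table, 56 of the 102 genes overlapped no coding gene, 40 overlapped one on the opposite strand, 4 on the same strand and 2 on both. Overlap of gene spans is not overlap of exons. In GENCODE release 44, which held 101 of them, 67 shared some exon base with another gene of any type and 25 shared at least 10% of their exon bases. By that release, 4 of the 56 (AC005670.3, DLEU1, LINC01184 and SNHG5) do share exon bases with a coding gene, and TUG1 is itself typed as coding. In 8 of the 102, 2 of them also among the overlapping genes, the start lay within 1000 bases of the start of a divergent coding gene. AC083843.3 had no entry in that release, so no exon length is given for it. The libraries were made from polyadenylated RNA, and MALAT1 and the long form of NEAT1 are known to lack an ordinary poly(A) tail.

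The sequences that bear on the results are shown first, beginning with the region around the RefSeq start of RMEL3, listed as AC025470.2 in the counts, because RMEL3 was the one gene of the 102 called in the main test. RMEL3 is a lncRNA described as largely restricted to melanoma. The window is chr5:57394857-57395156 (plus strand, RefSeq on GRCh38.p14), 250 bases before the start to 50 after it. It was searched on both strands for the M-box that MITF binds (TCATGTG or TCACGTG), which is present in 6.52% of 35116 RefSeq promoters of that length, and held 0 matches, so no letters are in capitals.
RMEL3: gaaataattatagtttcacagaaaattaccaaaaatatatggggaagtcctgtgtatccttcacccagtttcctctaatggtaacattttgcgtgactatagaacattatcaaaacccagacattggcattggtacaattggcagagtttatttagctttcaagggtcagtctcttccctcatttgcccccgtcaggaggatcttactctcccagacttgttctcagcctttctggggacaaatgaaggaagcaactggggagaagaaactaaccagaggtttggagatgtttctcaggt
MIR3142HG, host of the NF-kB-induced microRNA miR-146a, is shown because RIPK4 is known as an activator of NF-kB. Its window is chr5:160468001-160468300 (plus strand, same source). The RefSeq start used here lies inside the gene as counted, which begins at base 160438594, so the window is not the region before that start. The capitals mark a match to a kB site consensus, at base -120 from the start, which 0.191% of the 35116 promoters hold on either strand. Among the 57 lncRNA genes described here with a RefSeq promoter, MIR3142HG alone had this match. These are matches of letters and no binding was measured.
MIR3142HG: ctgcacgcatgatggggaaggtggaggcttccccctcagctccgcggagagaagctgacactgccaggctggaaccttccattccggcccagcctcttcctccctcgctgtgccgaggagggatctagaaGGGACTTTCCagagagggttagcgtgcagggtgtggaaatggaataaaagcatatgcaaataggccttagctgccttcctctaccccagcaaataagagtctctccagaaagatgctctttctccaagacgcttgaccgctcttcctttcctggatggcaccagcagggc

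Mature microRNAs encoded within 4 of the genes follow, with the seed (bases 2 to 8) in capitals, because the level of the host is the only trace of them that poly(A) libraries hold. Of the 102 genes, 8 span at least 1 annotated microRNA.
hsa-miR-675-5p, in an exon of H19: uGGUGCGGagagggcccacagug
hsa-miR-675-3p, from the same hairpin: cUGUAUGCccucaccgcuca
hsa-miR-146a-5p, in MIR3142HG: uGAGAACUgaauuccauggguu
hsa-miR-125b-5p, in MIR100HG: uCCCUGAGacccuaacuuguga
hsa-let-7a-5p, in MIR100HG: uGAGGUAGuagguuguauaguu
hsa-miR-100-5p, in MIR100HG: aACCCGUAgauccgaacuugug
hsa-miR-4435, in MIR4435-2HG: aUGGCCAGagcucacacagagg
The 7 sequences carried 7 different seeds, so no pair of them shares a seed. The mature microRNAs themselves were not measured.

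The first 20 bases of the canonical transcripts of 5 snoRNA hosts are given next, with the run of pyrimidines at the start in capitals. A start of C followed by at least 4 pyrimidines is the letter pattern of terminal oligopyrimidine (TOP) transcripts, whose best known members encode ribosomal proteins.
GAS5 (chr1:173867970-173867989, minus strand): CTTTTCgaggtaggagtcga
SNHG29 (chr17:16439037-16439056, plus strand): CTTTTCattcccgttgttat
ZFAS1 (chr20:49278642-49278661, plus strand): CTTTCgcgtctgcggtgccc
SNHG1 (chr11:62855903-62855922, minus strand): ggcatggtatttaatcgtct
SNHG16 (chr17:76557775-76557794, plus strand): gaggtcggccgcgtggctgg
GAS5, SNHG29 and ZFAS1 had the pattern, or 3 of 12 snoRNA hosts (25%), against 4.58% of 20046 canonical coding transcripts and 1.12% of the 89 other genes described here with an annotated start. Annotated starts can lie some bases away from the used start.

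Few of the 102 lncRNAs were called as changed when RIPK4 was silenced. With 3 libraries per group this does not show that the others were unchanged. On simulated counts edgeR called 47.4% of genes changed by 1 on the log2 scale. With edgeR, 1 gene was called at an adjusted p under 0.05 (adjusted over all 16297 genes tested), and it fell. That is 0.98% of the 102 genes, against 0.767% of all genes tested (0.393% for genes that fell), 0.871% of the 8265 coding genes that meet the same minimum and 0.222% of the other 2248 lncRNA genes tested, so the share is near the background. DESeq2 called 4 of the 102 (3.92%), all lower, against 2.91% of all its 15015 genes with an adjusted p (1.44% for genes that fell) and 3.1% of the coding genes with the minimum. At an unadjusted p under 0.05 there were 13 (12.7%), 7 lower and 6 higher, against 10.8% of all genes and 10.9% of those coding genes.

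In RNA from whole cultures, a change in level per cell and a change in the share of cells that express a gene cannot be told apart. The sizes of the changes were small. The log2 fold changes (RIPK4.si over neg.si) ran from -1.08 for H19 to 0.60 for LINC01679, with 45 above 0 and 57 below. Their median was -0.02, as it was over all genes tested, and the median of their absolute size was 0.16, against 0.19 over all genes tested and 0.15 over the coding genes with the minimum. A fold change of at least 1.5 was reached by 6 of the 102 (5.88%), against 11.4% of all genes, many of which have fewer counts, and 4.71% of the coding genes with the minimum. The neg.si and RIPK4.si values did not overlap in 24 of the 102 (23.5%), against 17.6% of all genes and 17.8% of those coding genes. Of these 24, 13 were lower in RIPK4.si (12.7% of the 102, background 9.4%) and 11 higher (10.8%, background 8.23%).

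**Figure D1:**
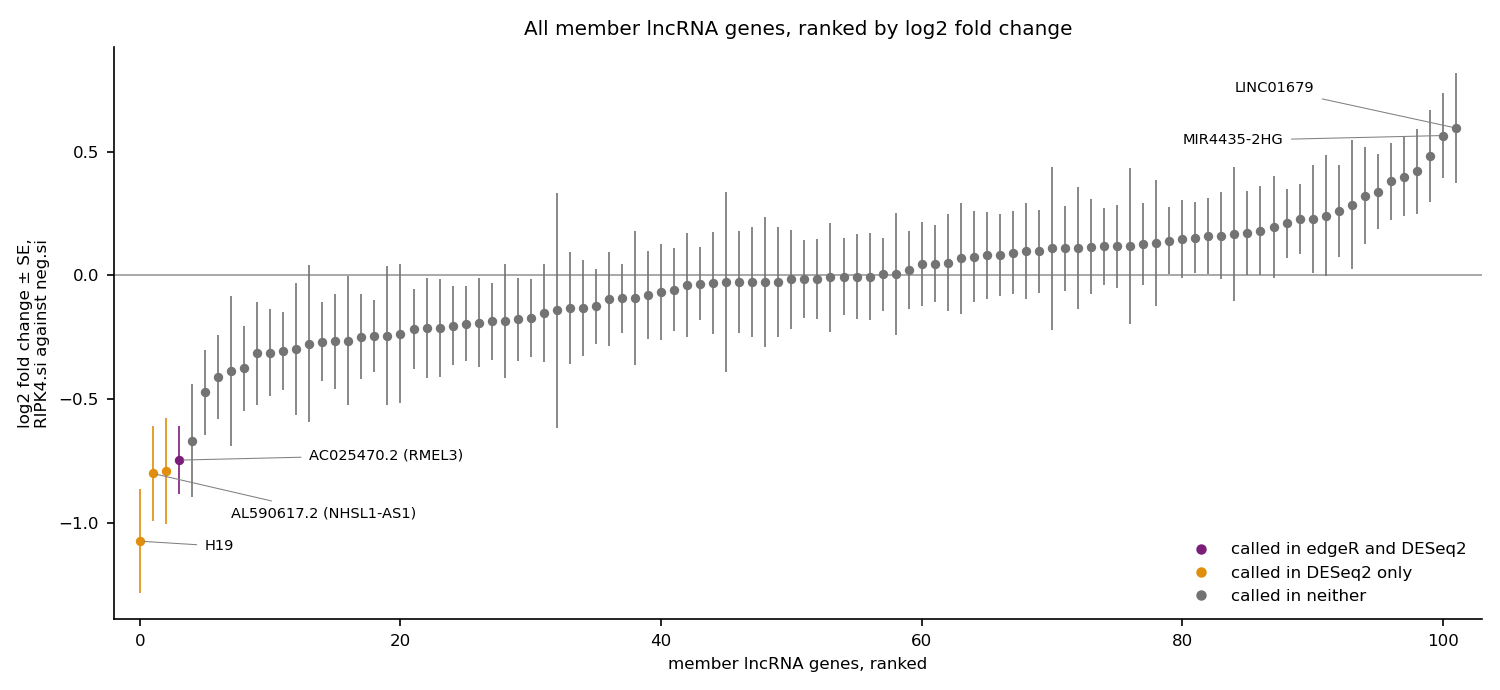
All 102 lncRNA genes ranked by log2 fold change, RIPK4.si against neg.si, with standard errors from edgeR. Colours mark genes called at an adjusted p under 0.05 by both tools, by DESeq2 alone, or by neither; the called genes are all at the low end, between -1.08 and -0.75, and in 58 of the 102 the fold change is smaller than its standard error.

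RMEL3 was the gene called by both tools. It lies at chr5:57395060-57534504 on the plus strand of GRCh38, spans 139 kb and has 2.29 kb of annotated exon. Its level was 57.7, 56.5 and 58.9 CPM in neg.si replicates 1, 2 and 3 and 33.6, 36.1 and 33.5 CPM in RIPK4.si replicates 1, 2 and 3. The groups did not overlap, and the replicates within each lay within a few percent of one another, with a coefficient of variation of 2.13% in neg.si and 4.25% in RIPK4.si. RIPK4.si reached 59.6% of neg.si. The log2 fold change was -0.75, with a standard error of 0.137 and an adjusted p of 0.049 in edgeR and 0.00124 in DESeq2. The edgeR call is close to its limit. It was lost with DESeq2's size factors (adjusted p = 0.0538), without the filter on low counts (0.0751) and on leaving out any 1 library other than neg.si replicate 3, with adjusted p-values of up to 0.398 (0.0309 without neg.si replicate 3), although the fold change itself kept between -0.77 and -0.72 on the log2 scale. The span of RMEL3 contains ACTBL2, a coding gene on the opposite strand with no exon base in common and 0.248 CPM in neg.si, and none of the 31-base words of RMEL3 occurred in another annotated gene.

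The melanocyte markers stand here because RMEL3 is expressed in the same lineage. Of the 7, edgeR called 1 and DESeq2 3 (background 0.767% and 2.91%), all lower. PMEL, a structural protein of melanosomes, fell from 280 ± 31.5 to 114 ± 8.11 CPM (SD, n = 3 each; edgeR adjusted p = 0.0111). DCT and TYR, enzymes of melanin synthesis, stood at 700 and 1348 CPM in neg.si and 423 and 911 CPM in RIPK4.si (adjusted p = 0.0854 and 0.148, DESeq2 0.0035 and 0.0407). MITF, the lineage's transcription factor, was at 348 and 358 CPM, SOX10 at 367 and 331, S100B at 703 and 505 and the melanosome protein gene MLANA at 12.5 and 13.1 CPM, and these 4 were not called by either tool. Whether RMEL3 moves with any of them for a shared cause was not tested.

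H19, an imprinted gene expressed from the maternal copy and best known as a fetal transcript, had the largest fitted change of the 102. It lies at chr11:1995176-2001470 on the minus strand and overlaps no coding gene. Its level was 77.1, 61.5 and 46.0 CPM in neg.si and 25.8, 33.6 and 28.1 CPM in RIPK4.si. All RIPK4.si libraries lay below all neg.si libraries, although the neg.si libraries differed among themselves by more than the gap between the groups. RIPK4.si reached 47.5% of the neg.si level, and the log2 fold change was -1.08 (standard error 0.21, edgeR adjusted p = 0.0616, DESeq2 0.000928). It was called without neg.si replicate 3 (adjusted p = 0.00804) and with the GC trend of each library removed (0.00283). On leaving out any 1 of the other 5 libraries it was not called, with adjusted p-values of 0.0992 to 0.37. The exons of H19 contain the miR-675 hairpin, whose mature strands are printed above.

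AL590617.2, named NHSL1-AS1 in GENCODE 44, and AC004889.1, named ARHGEF35-AS1, were called by DESeq2 alone. AL590617.2 (chr6:138692548-138697288, plus strand) had 20.9, 21.3 and 28.3 CPM in neg.si and 14.4, 11.4 and 14.7 CPM in RIPK4.si. The groups did not overlap, and its log2 fold change was -0.80 (standard error 0.191, edgeR adjusted p = 0.115, DESeq2 0.0118). It lies opposite NHSL1, an actin-regulator gene of the Nance-Horan family, but shares 0.909% of its exon bases with any gene. NHSL1 itself stood at 55.0 ± 8.06 against 42.8 ± 9.13 CPM (neg.si, then RIPK4.si; SD, n = 3), with an edgeR adjusted p of 0.588 for a log2 fold change of -0.36.

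AC004889.1 (chr7:144194858-144280547, plus strand) had 26.1, 26.1 and 37.4 CPM in neg.si and 21.0, 13.9 and 16.9 CPM in RIPK4.si, so the groups stood apart. Its log2 fold change was -0.79 (standard error 0.216, edgeR adjusted p = 0.167, DESeq2 0.0316). The value is in part uncertain as to its source. Of its exon bases 38.0% are shared with other genes, and 54.9% of its 31-base words occur in annotated genes elsewhere. Reads are longer than such words, so the share of reads concerned was not measured. Its coding neighbours on the other strand were low, ARHGEF35 at 3.88 and OR2A42 at 1.25 CPM in neg.si. AC011294.1, an unnamed intergenic gene on chromosome 7, completes the 5 lower genes with the smallest p-values, at 21.9, 27.9 and 34.2 CPM in neg.si and 21.3, 13.3 and 18.2 CPM in RIPK4.si (log2 fold change -0.67, edgeR adjusted p = 0.293). Its highest RIPK4.si library lay just under its lowest neg.si library.

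None of the 102 genes that was higher in RIPK4.si was called by edgeR or DESeq2, where edgeR called 0.374% and DESeq2 1.47% of all genes as higher. MIR4435-2HG (chr2:111036776-111523376, minus strand) came nearest, at 12.8, 13.9 and 16.8 CPM in neg.si and 20.6, 20.3 and 23.5 CPM in RIPK4.si. The log2 fold change was 0.57 (standard error 0.172, edgeR adjusted p = 0.22, DESeq2 0.0885). With the GC trend of each library removed its adjusted p was 0.0381. Part of this locus exists as a near copy, and 31.9% of its 31-base words occur in CYTOR, which just missed the minimum. CYTOR had 422, 369 and 294 read pairs in neg.si and 607, 515 and 570 in RIPK4.si (log2 fold change 0.69, edgeR adjusted p = 0.168, DESeq2 0.0492). How reads that fit both copies were handled is unknown, so the pair is best read together. BCL2L11, the coding gene for the apoptosis activator BIM within the same span, had a fold change of the opposite sign (-0.36 on the log2 scale), at 21.8 ± 4.41 against 17.0 ± 1.71 CPM (neg.si, then RIPK4.si; SD, n = 3; edgeR adjusted p = 0.577).

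The other 4 of the 5 higher genes with the smallest p-values also had groups that did not overlap, as had 17.6% of all genes. Choice by p-value favours such genes, so this is no further result. LINC01679 was at 36.8, 34.6 and 22.2 CPM in neg.si and 43.1, 57.1 and 41.3 CPM in RIPK4.si (log2 fold change 0.60, edgeR adjusted p = 0.346). TEX41 was at 14.6, 13.2 and 17.8 against 24.2, 18.3 and 21.3 CPM (0.48, adjusted p = 0.358). SNHG16, a host of 3 snoRNAs, was at 50.4, 47.2 and 39.8 against 65.1, 63.3 and 52.9 CPM (0.40, adjusted p = 0.391), and shares 28.5% of its exon bases with a coding gene model on the other strand, AC015802.6, which was at 1.37 and 0.653 CPM. AC064875.1 was at 32.2, 37.2 and 42.0 against 48.6, 50.6 and 45.7 CPM (0.38, adjusted p = 0.403).

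**Figure D2:**
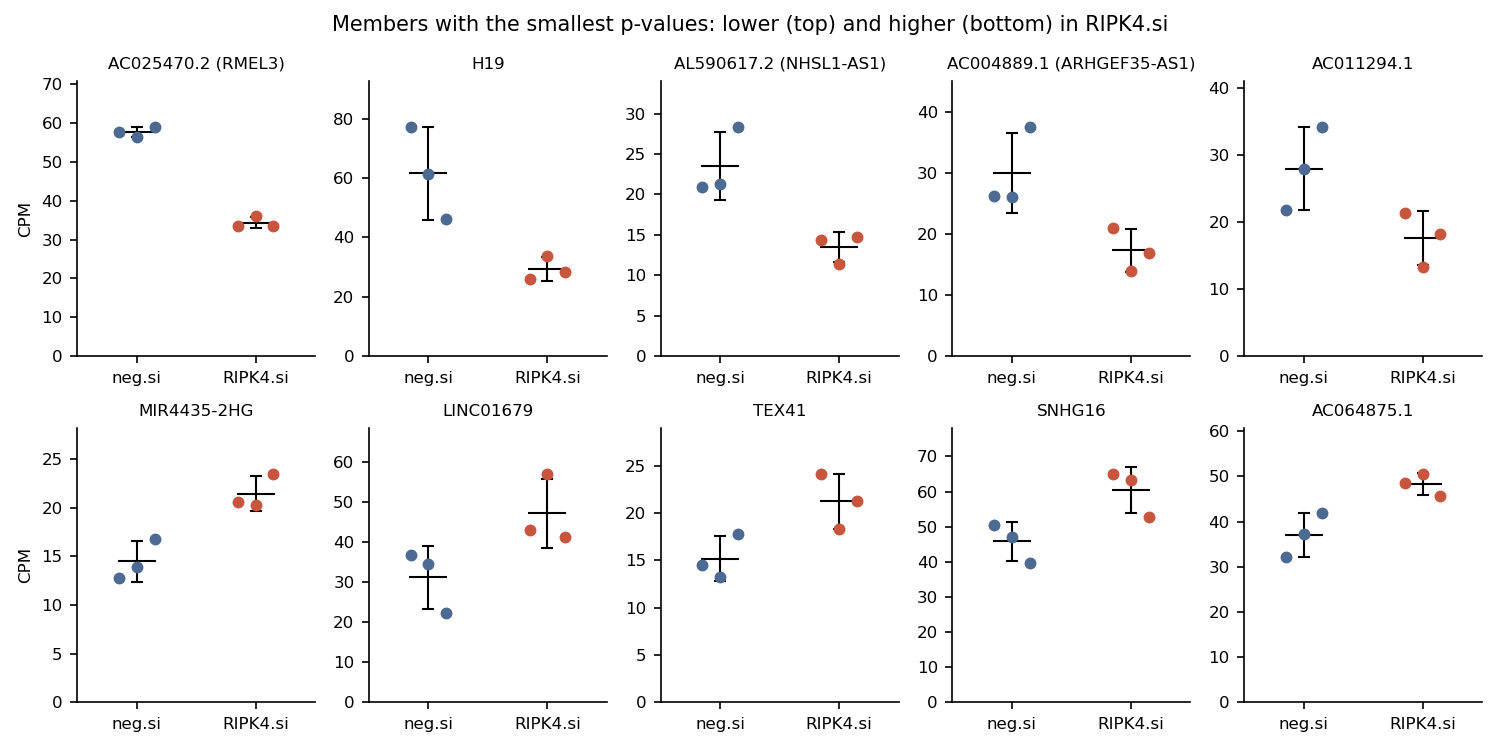
CPM in each library (points) with mean and SD (n = 3 per group) for the 5 lower and the 5 higher genes with the smallest p-values. The groups do not overlap in any panel, which the choice by p-value favours (17.6% of all genes do not overlap). RMEL3 is the gene with the tightest replicates, at 56.5 to 58.9 CPM in neg.si and 33.5 to 36.1 in RIPK4.si.

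The fold changes of the lncRNAs known from melanoma did not all have the same sign. Of 5 such genes among the 102, the groups did not overlap in 4, of which RMEL3 and SAMMSON were lower and LINC00518 and LINC00520 higher, and RMEL3 was the one called. Groups did not overlap in 17.6% of all genes and 23.5% of the 102, and 5 genes are too few to set against these shares. SAMMSON, a survival factor of melanoma cells, was at 12.7, 12.9 and 16.3 CPM in neg.si and 11.5, 11.5 and 12.3 CPM in RIPK4.si (log2 fold change -0.25, edgeR adjusted p = 0.727). LINC00518, a transcript used in melanoma diagnosis, was at 16, 14.5 and 16 against 20.4, 19.3 and 19.1 CPM (0.34, adjusted p = 0.463). LINC00520 was at 30.9, 23.0 and 22.3 against 35.5, 33.7 and 32.7 CPM (0.42, adjusted p = 0.407). PVT1, the neighbour of MYC, was at 12.6, 12.6 and 14.1 against 13.3, 12.5 and 13.1 CPM, with a log2 fold change of -0.02, the smallest of the class, and its groups overlapped.

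Among the broadly expressed lncRNAs with nuclear or RNA-binding roles, NORAD and NEAT1 varied widely between replicates. NORAD, which binds the Pumilio proteins and was at 153, 188 and 334 CPM in neg.si, was at 273, 116 and 272 CPM in RIPK4.si (log2 fold change -0.03, standard error 0.364). NEAT1, the scaffold of paraspeckles and a p53 target, was at 108, 108 and 222 against 217, 105 and 150 CPM (0.11, standard error 0.331). The groups overlapped in both genes, and each standard error exceeded the fold change.

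MALAT1, a transcript of nuclear speckles, was at 55.4, 67.1 and 99.1 CPM in neg.si and 83.1, 41.6 and 62.3 CPM in RIPK4.si (log2 fold change -0.24, edgeR adjusted p = 0.876). In GENCODE 44, 83.7% of its exon bases are shared with transcripts on the opposite strand or nested within it, chief among them TALAM1, its antisense partner, which was not among the counted genes. OIP5-AS1, a cytoplasmic binder of miR-7, was at 75.8, 108 and 164 against 106, 88.1 and 132 CPM (-0.09, adjusted p = 0.965). TUG1, the most abundant of the 102 by CPM, was at 188, 254 and 272 against 242, 261 and 296 CPM (0.16, adjusted p = 0.867). Of the 6 genes of this class, H19 included, none was called by edgeR and H19 was called by DESeq2 (background 0.767% and 2.91%).

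Several of these transcripts were high or low in the same libraries. In NORAD, NEAT1 and MALAT1, neg.si replicate 3 and RIPK4.si replicate 1 were the highest library of their group, and RIPK4.si replicate 2 was the lowest of its own. NORAD in neg.si replicate 3 was 2.18 times its level in replicate 1, and in RIPK4.si replicate 1 it was 2.36 times its level in replicate 2. The widest spread of all was that of GABPB1-AS1, named here after its values were seen, at 14.6, 20.2 and 49.2 CPM in neg.si and 35.3, 12.2 and 28.7 CPM in RIPK4.si, a ratio of 4.04 between its highest and lowest library. Over the 102 genes, neg.si replicate 3 was the highest of its group in 53 (52.0%), against 41.9% of the coding genes with the minimum, and RIPK4.si replicate 2 was the lowest of its group in 54 (52.9%), against 34.4%. The GC trend differed between libraries. The rank correlation between the GC content of a gene and its deviation in a library was 0.582 in neg.si replicate 1 and -0.578 in neg.si replicate 3 over 16239 genes, and 0.309 and -0.352 over 101 of the lncRNA genes. In RIPK4.si replicates 1 and 2 it was -0.0574 and 0.181 over all genes and 0.0424 and -0.0761 over the lncRNA genes. With exon length, the correlation over the lncRNA genes was -0.454 in neg.si replicate 1 and 0.276 in neg.si replicate 3 (-0.234 and 0.197 over all genes). For RIPK4.si it stood at 0.226 in replicate 1, -0.214 in replicate 2 and 0.326 in replicate 3 (0.061, -0.141 and 0.111 over all genes). The part of GC content and length in the spread of single genes was not tested.

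**Figure D3:**
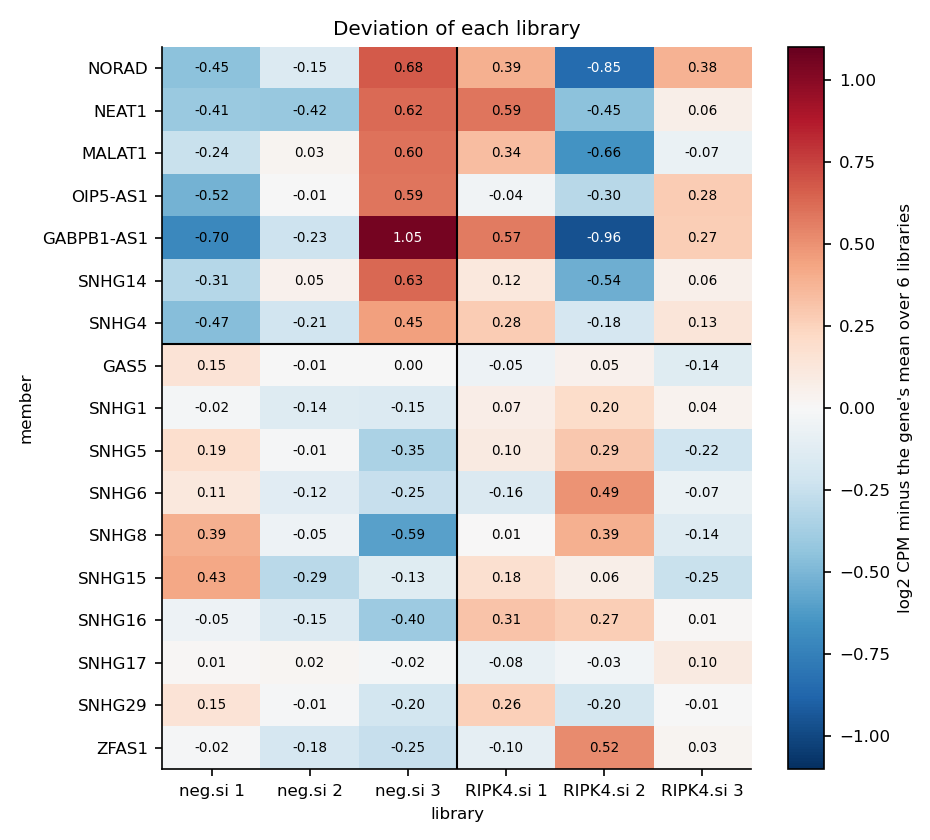
log2 CPM of each library minus the mean of the gene over the 6 libraries, for 7 genes chosen after their values were seen for rising and falling together (above the line) and the other 10 snoRNA hosts (below). In the upper block neg.si replicate 3 is the highest library of every gene, at 0.45 to 1.05, and RIPK4.si replicate 2 lies below the mean throughout, whereas in SNHG8 the same libraries stand at -0.59 and 0.39.

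The snoRNA hosts were called by neither tool (background 0.767% in edgeR and 2.91% in DESeq2). The 12 among the 102 genes were GAS5, ZFAS1 and SNHG1, SNHG4, SNHG5, SNHG6, SNHG8, SNHG14, SNHG15, SNHG16, SNHG17 and SNHG29. Their log2 fold changes were above 0 in 8 and below 0 in 4, with a median of 0.11 against -0.02 over all genes tested, and 1, SNHG16, had an unadjusted p under 0.05, as did 10.8% of all genes. Their summed level was 572 ± 27.4 CPM for neg.si against 597 ± 33.9 for RIPK4.si (SD over 3 libraries), within the spread of the libraries. Single hosts varied more than the sum in some cases, with a coefficient of variation in neg.si from 1.41% for SNHG17 to 34.4% for SNHG4, and they did not all move one way in a library. The most abundant host was SNHG29, at 143, 128 and 112 CPM in neg.si and 155, 112 and 128 CPM in RIPK4.si. GAS5, a host of 11 annotated snoRNA and related genes in RefSeq, named for its rise in growth-arrested cells, was at 95.6, 85.7 and 86.1 against 83.0, 89.3 and 78.4 CPM (log2 fold change -0.09, standard error 0.139). SNHG1 was at 48.9, 45.0 and 44.8 against 52.4, 57.1 and 51.1 CPM, with groups that did not overlap but a log2 fold change of only 0.21 (adjusted p = 0.703).

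The remaining hosts had groups that overlapped. SNHG5 was at 78.5, 68.5 and 54.2 CPM in neg.si and 74.1, 84.7 and 59.4 CPM in RIPK4.si. SNHG8 was at 33.2, 24.3 and 16.7 against 25.4, 33.1 and 22.9 CPM, and SNHG6 at 28.5, 24.2 and 22.1 against 23.6, 37.0 and 25 CPM. In these 3 genes neg.si replicate 3 was the lowest library of its group and RIPK4.si replicate 2 the highest, the reverse of NORAD and MALAT1. SNHG14, a very long transcript on chromosome 15 that carries the SNORD115 and SNORD116 clusters and runs antisense to UBE3A, was at 54.1, 69.4 and 104 against 72.9, 46.3 and 70.1 CPM, the order of NORAD, which SNHG4 also had. SNHG14 and its coding neighbour on the same strand, SNRPN, cannot be fully separated by counting.

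The 3 genes listed as microRNA hosts, MIR3142HG, MIR100HG and MIR4435-2HG, were called by neither edgeR nor DESeq2 (background 0.767% and 2.91%), while H19, which also carries a microRNA, was called by DESeq2 as described. MIR3142HG was at 73.4, 69.4 and 98.8 CPM in neg.si and 74.5, 54.4 and 71.9 CPM in RIPK4.si (log2 fold change -0.27, standard error 0.192, edgeR adjusted p = 0.738), and its groups overlapped. The NF-kB subunit genes NFKB1 and RELA stood at 61.6 ± 1.23 and 40.5 ± 8.12 CPM in neg.si, against 52.5 ± 1.49 and 35.6 ± 0.488 CPM in RIPK4.si (SD, n = 3; adjusted p = 0.628 and 0.831). MIR100HG, host of miR-100, let-7a-2 and miR-125b-1, was at 24.7, 37.4 and 44.6 against 37.9, 41.0 and 46.1 CPM (0.23, adjusted p = 0.831).

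Compared per length, the order of the 102 genes changes, because the annotated exons range from 0.823 to 122.6 kb. The length joins the exons of all annotated transcripts, and 87 of the genes have more than 1. The order therefore depends on the annotation as well as on the level. LINC02732, an intergenic transcript on chromosome 11 with no assigned role, had the highest level, at 64.6 CPM per kb of exon as the mean of the 6 libraries, and it was also among the steadiest, with 151, 143 and 134 CPM in neg.si and 165, 151 and 157 CPM in RIPK4.si. NORAD followed at 41.2 CPM per kb, a level in part uncertain as to its source. Of its 31-base words 55.8% occur in annotated genes elsewhere (37.6% in OVCH1-AS1), against 16.8% for LINC02732. Reads are longer than such words, so the share of reads concerned was not measured. Next came DSCR8, expressed in testis and melanoma, at 36.0, AL035541.1 at 32.6, MIR3142HG at 31 and ARHGAP5-AS1 at 29.2. AL139241.1, FGD5-AS1 and TUG1 lay between 24.8 and 25.2 and RMEL3 was at 20.1 CPM per kb, although its CPM of 46.0 over all libraries is far below the 252 of TUG1. Most neighbours in this order did not stand apart, as their libraries overlapped. FGD5-AS1 was at 140, 156 and 182 CPM in neg.si and 136, 132 and 157 CPM in RIPK4.si (log2 fold change -0.17), and ARHGAP5-AS1 at 62.6, 51.7 and 54.7 against 56.5, 48.1 and 50.2 CPM (-0.13). DSCR8 was at 35.2, 30.4 and 21.9 against 26.6, 38.5 and 26.7 CPM (0.07), and AL035541.1 at 29.7, 21.5 and 21.9 against 32.6, 25.3 and 29.8 CPM (0.26). The groups overlapped in each of these, and none of the 10 but RMEL3 was called. AL139241.1 lies opposite LOXL4, a collagen crosslinking enzyme at 4167 CPM in neg.si, and shares 13% of its exon bases with other genes, and the part of LOXL4 reads in its 29.5 CPM was not tested.

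**Figure D4:**
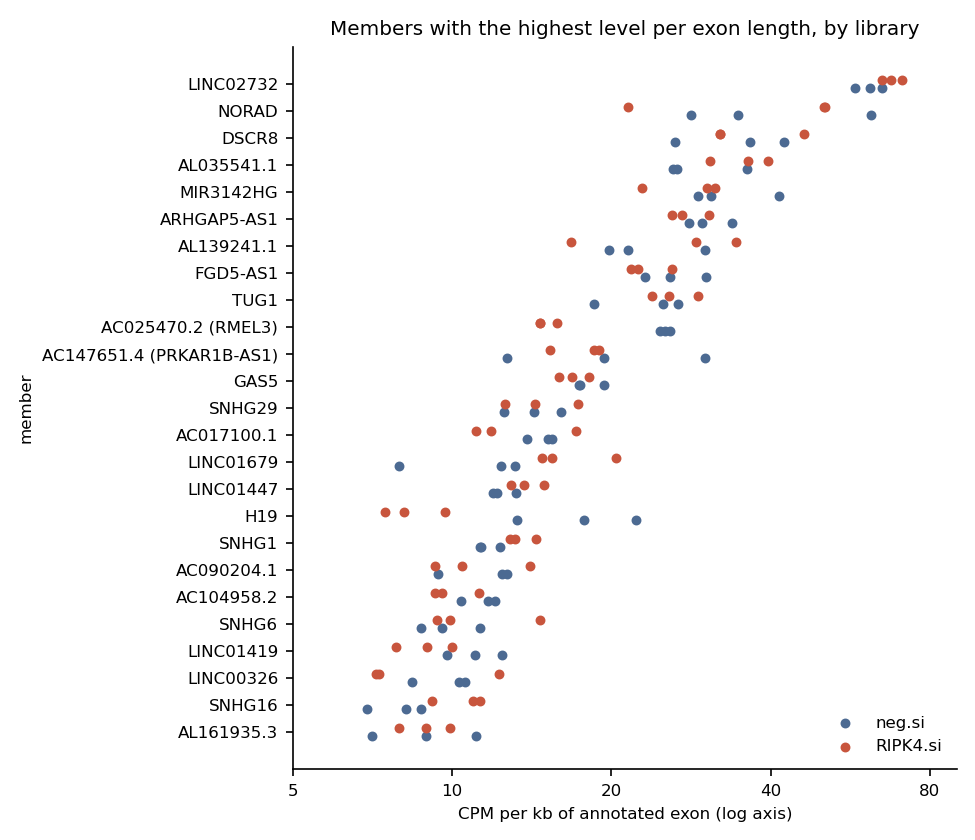
Level per kilobase of annotated exon (CPM per kb, log axis) in each library for the 25 genes of highest level per length, neg.si and RIPK4.si in separate colours. LINC02732 leads at a mean of 64.6 CPM per kb, the points of most neighbouring genes overlap, and the 2 colours stand apart in RMEL3 and H19, which are lower in RIPK4.si, and in LINC01679, SNHG1 and SNHG16, which are higher.

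Taken as a share of all gene counts, the 102 genes held 0.381 ± 0.0561% in neg.si and 0.368 ± 0.0432% in RIPK4.si (SD, n = 3), and the difference was smaller than the spread of the libraries. The lowest share was 0.32%, in RIPK4.si replicate 2, and the highest was 0.445%, in neg.si replicate 3. They held between 44.7% and 47.6% of all lncRNA counts, and the leading 5 of them, TUG1, NORAD, NEAT1, FGD5-AS1 and LINC02732, held between 21.1% and 27.4% of the counts of the 102. Mitochondrial genes took 9.61% to 13.4% of a library and were highest in RIPK4.si replicate 2, where the share of the lncRNAs was lowest.

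The other 68 of the 102 genes spanned 11 to 71.5 CPM as the mean of all libraries, with log2 fold changes from -0.47 for NUP50-DT to 0.32 for ZFAS1, 26 above 0 and 42 below. None was called, the lowest adjusted p being 0.331 in edgeR and 0.341 in DESeq2, and 2 had an unadjusted p under 0.05 (10.8% of all genes did). The groups did not overlap in 10 (17.6% of all genes). The 68 are what is left once the called genes and those with the smallest p-values are set apart, so their few low p-values follow from that choice and are no result. Examples singled out after their values were seen are NUP50-DT, RASSF8-AS1 and LINC01278. NUP50-DT, divergent to the nuclear pore gene NUP50, was at 18.6, 21.9 and 19 CPM in neg.si and 12.7, 16.5 and 13.7 CPM in RIPK4.si, and NUP50 itself at 225 and 175 CPM (log2 fold change -0.36, edgeR adjusted p = 0.466). RASSF8-AS1 was at 14.6, 13 and 16.2 against 12, 10.9 and 10.1 CPM (-0.41, adjusted p = 0.42). LINC01278, on the strand of the coding gene SPIN4 and overlapping it, was at 28.7, 31.2 and 29.3 against 34.2, 34 and 36.3 CPM (0.23, adjusted p = 0.672), and SPIN4 itself was at 2.81 and 4.97 CPM, with groups that did not overlap (0.82, adjusted p = 0.309).

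Genes with and without an overlapping coding gene had like medians. The median log2 fold change was -0.02 in the 56 genes with no overlap, from -1.08 to 0.60, and -0.02 in the 40 with a coding gene on the opposite strand, from -0.80 to 0.57. Of the first, edgeR called 0 and DESeq2 1, H19, with 7 at an unadjusted p under 0.05. Of the 40, edgeR called 1 and DESeq2 3, with 6 at an unadjusted p under 0.05. The 25 genes that share at least 10% of their exon bases had 0 edgeR calls and 1 DESeq2 call, AC004889.1, with 2 at an unadjusted p under 0.05. The shares over all genes were 0.767% for edgeR, 2.91% for DESeq2 and 10.8% at an unadjusted p under 0.05, and the counts here are too few to set against them.

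The coding genes that overlap or face these lncRNAs were compared because counting ignored strand. There were 67 pairs, of which 58 had both genes tested, and 33 of the 58 had fold changes of the same sign. The rank correlation of the fold changes over these pairs was 0.241. It is given as a description, since some genes enter more than 1 pair and strand does not separate the reads of overlapping genes. Of the tested partners, edgeR called 1 and DESeq2 called 2, against 0.767% and 2.91% of all genes. SEC31A, a coat component of vesicles leaving the endoplasmic reticulum, rose from 94.4, 105 and 103 CPM to 181, 182 and 185 CPM (log2 fold change 0.85, standard error 0.135, edgeR adjusted p = 0.0329), whereas THAP9-AS1, which overlaps it on the same strand, was at 16.7, 21.2 and 29.1 CPM in neg.si and 17.8, 18.2 and 17.8 CPM in RIPK4.si (-0.32, adjusted p = 0.704). SNTB1, a syntrophin, was called by DESeq2 alone, at 227 ± 43.2 against 117 ± 14.9 CPM (SD, n = 3; edgeR adjusted p = 0.0567, DESeq2 0.000426). AC104958.2, opposite SNTB1 with 38.3% of its exon bases shared with other genes, was at 13 ± 0.994 and 11.5 ± 1.21 CPM (SD, n = 3; -0.18, edgeR adjusted p = 0.829). SEC31A and SNTB1 were singled out after their values were seen.

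**Figure D5:**
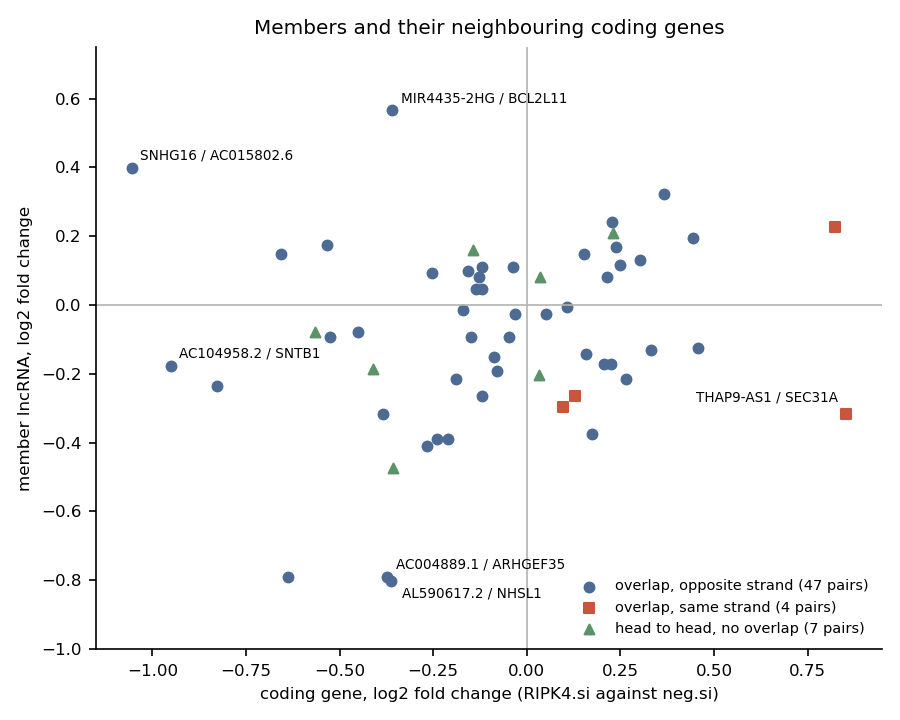
log2 fold change of each lncRNA (vertical axis) against that of its overlapping or divergent coding gene (horizontal axis), RIPK4.si against neg.si, for the 58 pairs with both tested. Points scatter on both sides of 0 on each axis with a rank correlation of 0.241, and SEC31A, at 0.85, lies opposite in sign to THAP9-AS1, at -0.32.

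The proteins that work on these RNAs were described as lists, beside the background of 0.767% called by edgeR, 2.91% by DESeq2 and 10.8% at an unadjusted edgeR p under 0.05. Among 18 proteins of paraspeckles and speckles, 16 of the snoRNP core and its assembly, 16 factors of nonsense-mediated decay and 19 of nuclear RNA decay, neither edgeR nor DESeq2 called any. At an unadjusted edgeR p under 0.05 there were 2 in the first list and 0 in each of the others. The 2 were SON, a speckle scaffold, at 156, 188 and 215 CPM in neg.si and 313, 236 and 296 CPM in RIPK4.si (log2 fold change 0.60, adjusted p = 0.206), and HNRNPA1, a splicing regulator, at 467, 392 and 428 against 624, 552 and 517 CPM (0.40, adjusted p = 0.361). Neither overlapped between the groups, as was so for 17.6% of all genes. The median log2 fold changes of the lists were -0.05, 0.04, -0.08 and 0.02 in the order given, against -0.02 over all genes tested.

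With the GC trend of each library removed, 5 of the 102 genes were called (4.9%), against 3.28% of all genes, namely the 4 that DESeq2 called and MIR4435-2HG. RMEL3, H19, AL590617.2 and AC004889.1 kept their direction in every alternative run.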

How the data were processed

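RNA was measured in 3 neg.si and 3 RIPK4.si cultures of WM266.4 cells, 48 h after transfection. The authors prepared poly(A) libraries, trimmed paired reads with cutadapt, used TopHat for alignment to GRCh38.p13 and HTSeq, in its unstranded mode, to count read pairs on each gene. The deposited count values are whole and unnormalized, and every listed gene totals 6 or more. A further 6 columns of normalized values and the authors' fold changes and p-values were not used.

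Counts were tested with edgeR 4.0.16 in R 4.3.3 (TMM, edgeR's filter on low counts, quasi-likelihood test, Benjamini-Hochberg over all 16297 genes). The standard error is the log2 fold change over the square root of F. A gene is called at an adjusted p under 0.05. An exact permutation test of 3 libraries against 3 cannot go below 0.1. Alternatives were DESeq2 1.42.0, other normalizations, filters and minimum counts, a GC trend removed (lowess span 0.3), a replicate block and each library left out. On simulated counts edgeR called 47.4% of genes changed by 1 and 89.5% of genes changed by 2 on the log2 scale, over 15976 genes, and 5 of 15784 unchanged genes. Replicates within a group differed by more than sampling noise. Tables were handled in Python 3.11.15 with pandas 2.3.3, numpy 2.4.6 and scipy 1.17.1, and plots drawn with matplotlib 3.10.9.

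Coordinates are those of the deposited table. Exons, overlaps and transcript starts came from GENCODE 44 by gene identifier (101 of 102 found, 78 with the same start and end), and promoters and microRNAs from RefSeq by name. The genes and lists were chosen with earlier results of these data known. Genes named with values are those called by edgeR or DESeq2, the 5 lower and 5 higher with the smallest p, the 10 with the highest counts per kb of exon, those on lists of nuclear, melanoma, p53 and microRNA host lncRNAs, the 8 most abundant snoRNA hosts and the coding partners of the first of these. Others are said to be chosen after their values were seen, or stand in the lists described.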

Additional observations from a re-analysis of the deposited data

How the results depend on the processing

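The count of called genes among the 102, 1 with edgeR, was 4 with DESeq2, 5 with the GC trend removed, 6 with the GC trend removed and a replicate block (these and LINC01679, adjusted p = 0.0431), and 0 with DESeq2's size factors in edgeR or with no filter on low counts. Over all genes edgeR called 125, and these fits called 437, 535, 426, 117 and 126 in that order. With each library left out the count among the 102 ranged from 0 to 2. A minimum of 100 counts gave 2 of 309 lncRNA genes and one of 1000 gave 0 of 21, while among the 56 genes that overlap no coding gene there were 0 and among those sharing no exon base 1. Fewer genes enter these last 3, and for the other alternatives the cause was not tested. Over all genes, edgeR called 0 without neg.si replicate 2 or RIPK4.si replicate 1 or 3 (1153, 1426 and 1086 at an unadjusted p under 0.05) and 295 without neg.si replicate 3.

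The labels number the replicates but do not say whether the numbers pair the samples. Correlations of same-numbered deviations were -0.24, 0.25 and 0.35, and those of other pairs ran from -0.50 to 0.41, which cannot settle it. The replicate block gave 1 edgeR call, H19 (adjusted p = 0.0489) in place of RMEL3 (0.0827).

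RIPK4 was not called without neg.si replicate 2 or any 1 RIPK4.si replicate, although its log2 fold change kept between -1.98 and -1.79 in these fits and between -2.06 and -1.74 over all 6 that leave out a library. The share of counts rose to 0.539% in neg.si and 0.523% in RIPK4.si with the minimum of 100 and, without mitochondrial genes, to 0.43% in neg.si and 0.416% in RIPK4.si. SON gave the paraspeckle and speckle list 1 call with the GC trend removed.

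Of the 476 log2 fold changes of named lncRNA genes under alternatives, 431 kept direction and call and 23 changed sign, all in genes of main size at most 0.26. With the GC trend removed NORAD was at 0.0244 and PVT1 at 0.0232, and with the block added PVT1 was at 0.0236. With each library left out the ranges were -0.22 to 0.37 for NORAD, -0.12 to 0.25 for DSCR8, -0.0467 to 0.43 for AL139241.1, -0.50 to 0.0277 for MALAT1, -0.18 to 0.54 for NEAT1, -0.30 to 0.25 for OIP5-AS1, -0.0261 to 0.0439 for PVT1, -0.0759 to 0.16 for SNHG29, -0.012 to 0.26 for SNHG5, -0.44 to 0.0343 for SNHG14, -0.0259 to 0.33 for SNHG6 and -0.0807 to 0.42 for SNHG8.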
